A study of Mus musculus with 3 samples.

Results

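MicroRNAs that mark epithelial cells were followed in mouse plasma after exercise: mmu-miR-205-5p and its partner arm mmu-miR-205-3p, and the 5 guide strands of the miR-200 family, mmu-miR-200a-3p, mmu-miR-200b-3p, mmu-miR-200c-3p, mmu-miR-141-3p and mmu-miR-429-3p. They were taken by name and make up 7 of the 1900 miRNA probes on the chip, each with 1 spot per array. The plasma came from male C57BL/6 mice aged 8 weeks and was measured on 3 single-colour arrays, 1 for each group. The control group was caged as usual, the aerobic group did an acute bout of aerobic exercise and the resistance group one of resistance exercise, which the study's title calls moderate in intensity, and blood was drawn 3 h later. All animals had been fasted overnight. Each array was hybridised with 1 pool of plasma from 3 mice, 100 µl from each, so a group has 1 value per miRNA, there were no replicates and no test was possible. No label used here describes the regimens further.

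miR-205 is known from stratified epithelia such as skin and from glandular epithelia, where its 5p arm is the abundant product. The miR-200 family is expressed in epithelia of many organs, and its members repress the transcription factors Zeb1 and Zeb2, which silence the E-cadherin gene during epithelial-to-mesenchymal transition. miR-205 is also known to target both of these factors. The family is arranged in a pair of clusters, each transcribed as a unit.

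The mature strands are shown because the family divides by its seed, the bases 2 to 8 that choose the targets. Its members also share most of their bases. Sequences are from RefSeq (GRCm38.p6), where 7 of 7 members were found. Capitals mark the seed, and each strand runs 5′ to 3′.
mmu-miR-205-5p: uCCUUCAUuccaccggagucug
mmu-miR-205-3p: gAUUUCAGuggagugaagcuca
mmu-miR-200b-3p: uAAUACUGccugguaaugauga
mmu-miR-200c-3p: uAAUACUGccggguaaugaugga
mmu-miR-429-3p: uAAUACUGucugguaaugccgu
mmu-miR-200a-3p: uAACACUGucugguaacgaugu
mmu-miR-141-3p: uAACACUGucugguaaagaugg

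miR-200b-3p, miR-200c-3p and miR-429-3p share the seed AAUACUG, while miR-200a-3p and miR-141-3p share AACACUG. No other miRNA on the chip that was found in that table has one of these seeds or either seed of miR-205. Between members of the family 17 to 20 of the first 22 bases were the same. The closest pairs were miR-200b-3p with miR-200c-3p, which differ by U11G and A22G, and miR-200a-3p with miR-141-3p, which differ by C17A and U22G. Positions are counted from 1 at the 5′ end, and the first-named strand's base is given first. The designs of the chip's probes were not used here, and sharing of signal between such close strands was not tested. The G and C content was 54.5% for miR-205-5p and 36.4% to 43.5% in the miR-200 family.

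Seed and cluster cross each other in the family. Mir200b, Mir200a and Mir429 lie on the minus strand within 1846 bp at chr4:156053905-156055750. Mir200c and Mir141 lie within 477 bp at chr6:124717914-124718390, also on the minus strand. Mir205 stands alone at chr1:193507463-193507530 on the minus strand. Its hairpin of 68 bases is shown with both arms in capitals, the 5p arm first, since the arms differed in signal.
Mir205: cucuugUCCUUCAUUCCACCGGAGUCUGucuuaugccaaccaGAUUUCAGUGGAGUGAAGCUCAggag

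miR-205-5p was the member with a clear signal, and its spot was brightest in resistance plasma. Its raw intensity was 174.7 in the caged controls, 178.2 after aerobic and 294.3 after resistance exercise. The control and aerobic spots were thus nearly alike and the resistance spot stood well above both. The blank spots, which carry nothing, had a mean of 92.0 in the control, 92.9 in the aerobic and 93.3 in the resistance array. Above that mean the miR-205-5p spot stood at 82.7, 85.2 and 201.1 in the same order. None of the 174 spots printed without a probe was as bright as miR-205-5p on any array, where the brightest such spots reached 123.5, 151.0 and 134.4.

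The partner arm miR-205-3p showed no such pattern. Its raw intensity was 99.1 for the control, 100.1 for the aerobic and 99.4 for the resistance pool. On the control array 37 of the 174 spots without a probe were at least as bright, on the aerobic array 2 and on the resistance array 13. A spot counted as detected where it lay over 2 SD of the blank spots above their mean, that is above 94.8, 99.0 and 96.9 on the control, aerobic and resistance arrays. miR-205-3p passed that mark on all 3 arrays, but so did 78.7% of the spots without a probe on the control array, 4.02% on the aerobic array and 20.1% on the resistance array.

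**Figure D1:**
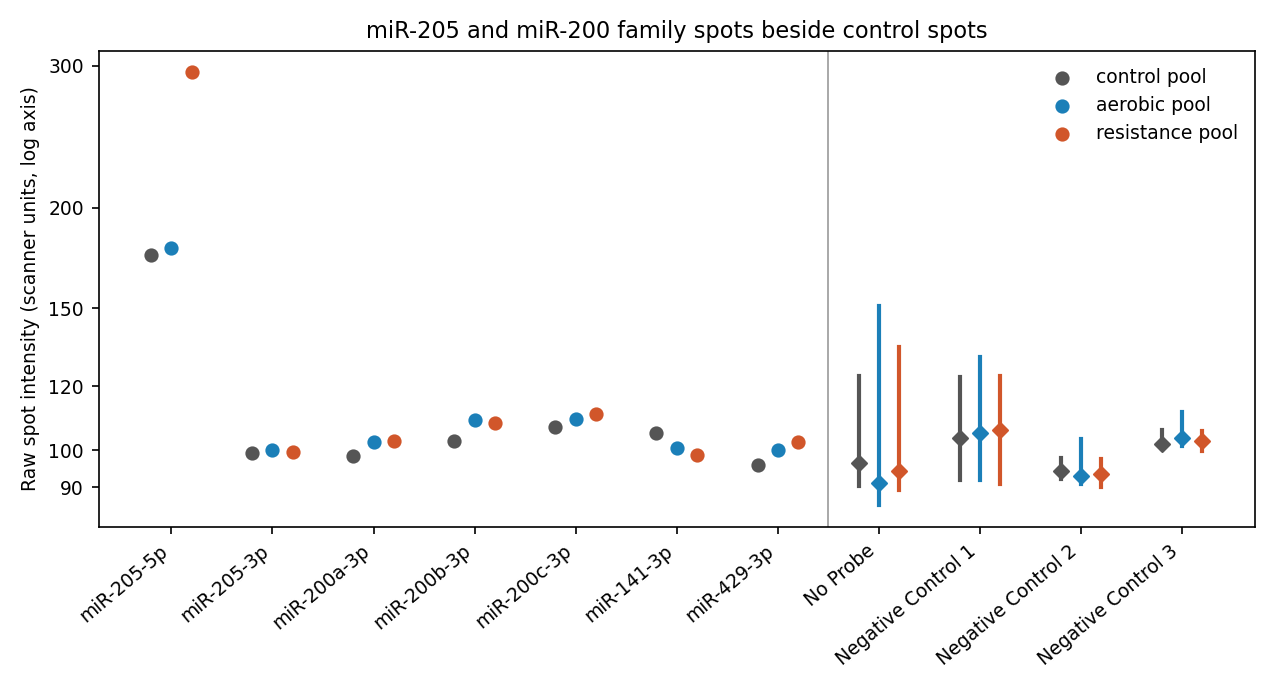
Raw spot intensity (vertical log axis, scanner units) of the 7 members in the control, aerobic and resistance pools, 1 point per array, beside the control spots of the same arrays, whose lines run from the lowest to the highest spot with a diamond at the median. miR-205-5p reaches 294.3 in the resistance pool, and the other 6 members lie between 95.8 and 110.8, inside the range of the spots without a probe.

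The miR-200 family was near background in every pool. Its 5 spots ranged from 95.8 to 106.8 in control, from 100.1 to 109.2 in aerobic and from 98.7 to 110.8 in resistance plasma. The 8 spots of Negative Control 3 ranged over 100.4 to 105.9, 101.1 to 111.5 and 99.8 to 105.7 on the same arrays, so the family and a negative control overlapped on each. All 7 members passed the 2 SD mark on all arrays, as did 75.3%, 71.8% and 72.2% of the 1900 miRNAs on the control, aerobic and resistance arrays. Against a stricter mark, 10 SD of the blanks, miR-205-5p passed everywhere and miR-200c-3p in the control pool only. That left 2, 1 and 1 of 7 members in control, aerobic and resistance plasma, against 990, 808 and 886 of the 1900 miRNAs. The SD of the blanks was 1.41, 3.05 and 1.85 on these arrays, so the mark lay lowest on the control array. The raw miR-200c-3p spot was itself dimmest there. Against the 95th percentile of the spots without a probe 4, 7 and 5 of 7 members passed, where 58.0%, 73.4% and 64.2% of all miRNAs did.

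Among the AAUACUG strands, miR-200c-3p stood at 106.8 for the control, 109.2 for the aerobic and 110.8 for the resistance pool. miR-200b-3p stood at 102.5, 108.9 and 108.0. miR-429-3p stood at 95.8, 100.1 and 102.4, and on the control array 109 of the 174 spots without a probe were at least as bright as it. In raw intensity all 3 strands were dimmest in the control pool, by less than the spread of the S-Probe7 spots described below. With quantile scaling of the arrays miR-200c-3p was no longer so, and with median scaling none of the 3 was. The 8 spots of S-Probe7, a dim repeated control, ran from 109.9 to 145.9 on the control array. Those of Negative Control 3 kept to a narrower range there, 100.4 to 105.9. The largest rises of miR-200b-3p and miR-429-3p over control were wider than that range, and that of miR-200c-3p was not.

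Of the AACACUG strands, miR-200a-3p stood at 98.2 for the control, 102.3 for the aerobic and 102.7 for the resistance pool. miR-141-3p stood at 105.0, 100.7 and 98.7, and was the only one of the 7 members whose raw spot was brightest in the control pool. These raw orders are not comparable across unscaled arrays: on the normalized scale described next, miR-141-3p and miR-200c-3p, neighbours in the cluster on chromosome 6, both stood below control in the aerobic pool, and miR-200a-3p and miR-141-3p both stood above the aerobic pool in the resistance pool, each by less than the scatter of repeated spots. All of these values lie within the range of the negative controls.

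For comparison between pools, intensities were background corrected, quantile normalized over the 1900 miRNAs and set on a log2 scale, and a difference is the normalized log2 intensity of 1 pool minus another. An offset of 50 in the correction pulls differences of dim spots towards 0. The one available error is technical: spots of the 2 spike-in probes, repeated on each array, scattered with an SD of 0.11, which gives 0.32 for 2 SD of a difference between single spots. That limit is called spot scatter below. The spikes are far brighter than the members. S-Probe7, with mean raw intensities from 121.1 to 127.7 and so nearer to the members, had a pooled SD of 0.15 and gives 0.43. Both limits come from values with the offset of 50, before scaling. They were not recomputed for processing without that offset, so calls there are not measured against their own scatter. Neither limit covers variation between mice, pools or hybridisations.

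Between resistance and control plasma miR-205-5p differed by 0.85, from 7.25 to 8.10 in normalized log2 intensity, a fold of 1.80. That is past both spot scatter and the 0.43 of the dim repeated spots. It was the fourth highest of 1336 differences between miRNAs detected in both pools, whose median was -0.01. The other 6 members lay within 0.32, with miR-429-3p at 0.14, miR-200b-3p at 0.10, miR-200a-3p at 0.08, miR-200c-3p at 0.05, miR-205-3p at -0.02 and miR-141-3p at -0.17. So 1 of 7 members was higher past spot scatter and 0 lower, where 5.54% of all miRNAs compared were higher and 3.22% lower. The median of the 7 was 0.08. No member reached 2-fold, which 0.225% of miRNAs did in the higher and 0.0749% in the lower direction. With an offset of 0 miR-205-5p did, at 2.19-fold, and in the authors' deposited normalized values it was 2.28-fold brighter in resistance than in control plasma.

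Between resistance and aerobic plasma the difference of miR-205-5p was larger, at 1.09 or 2.12-fold, from 7.01 to 8.10. It was the second highest of 1307 differences, whose median was -0.01. All 7 members were on the higher side, but the other 6 by no more than 0.12: miR-200c-3p by 0.12, miR-429-3p by 0.11, miR-200a-3p by 0.08, miR-200b-3p by 0.07, miR-205-3p by 0.04 and miR-141-3p by 0.01. With no scaling between arrays 5 of these 6 turned negative, from -0.01 for miR-200c-3p to -0.09 for miR-141-3p, and the median of all miRNAs was then -0.19. Past spot scatter were 1 of 7 members in the higher and 0 in the lower direction, against 1.91% and 1.3% of all miRNAs. At 2-fold it was again 1 of 7 higher and 0 lower, against 0.153% and 0%. The member is miR-205-5p, which fell short of 2-fold with no scaling, at 1.79-fold, and with spike-in scaling, at 1.90-fold. In the authors' deposited values the fold of miR-205-5p was 3.07.

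Aerobic and control plasma did not differ in any member by more than spot scatter on this scale, but without the offset some members passed it. miR-205-5p stood at -0.24, a fold of 1.18, and ranked 58th from the lowest of 1321 differences, whose median was 0.00. Its sign depended on the scaling: the raw aerobic spot was the slightly brighter one, and without scaling between arrays the difference was 0.06, while the median of all miRNAs was 0.20. Among the others miR-141-3p stood at -0.18, miR-200c-3p at -0.08, miR-205-3p at -0.06, miR-200a-3p at 0.00, and miR-200b-3p and miR-429-3p each at 0.03. Without scaling miR-200c-3p, miR-205-3p and miR-200a-3p stood at 0.09, 0.07 and 0.14, so no direction is given for them. The count was 0 of 7 in either direction, against 3.79% of all miRNAs higher and 2.04% lower. At 2-fold it was also 0 of 7, against 0% higher and 0.227% lower. With an offset of 0 miR-205-5p passed spot scatter as lower in the aerobic pool, at -0.37, as it did with blank subtraction and in the authors' deposited values. The members lower past spot scatter were then 2, 4 and 4 of 7 and those higher 0, 1 and 1, where 8.48%, 13.8% and 18.8% of all miRNAs were lower and 10.8%, 16.4% and 13.4% higher.

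**Figure D2:**
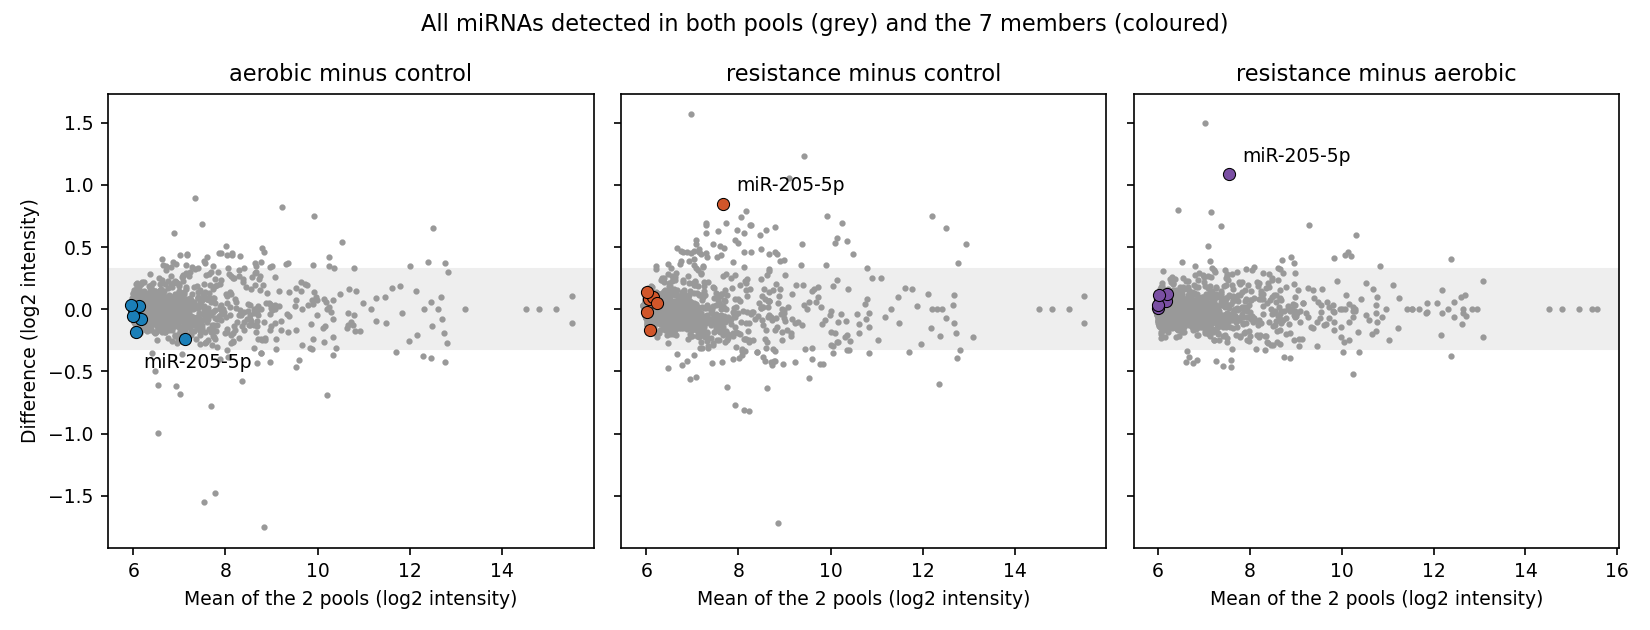
Difference between 2 pools (vertical axis, log2 intensity) against their mean (horizontal axis, log2 intensity) for all miRNAs detected in both, in grey, with the 7 members coloured and a band at 0.32 either side of 0, 2 SD of a difference between repeated spike-in spots. miR-205-5p stands at 0.85 and 1.09 in the panels with resistance plasma, and the other members sit at the dim end inside the band.

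The size of the miR-205-5p differences, but not the direction of those with resistance plasma, moved with the processing. The resistance minus control difference ran from 0.85 to 1.19 and the resistance minus aerobic difference from 0.84 to 1.62 over 7 ways of processing. Both were past 0.43 in each. In rank from the highest, miR-205-5p lay between 4 and 9 among the resistance minus control differences and between 2 and 4 among the resistance minus aerobic ones. Against control, the aerobic pool stood between -0.43 and 0.06.

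**Figure D3:**
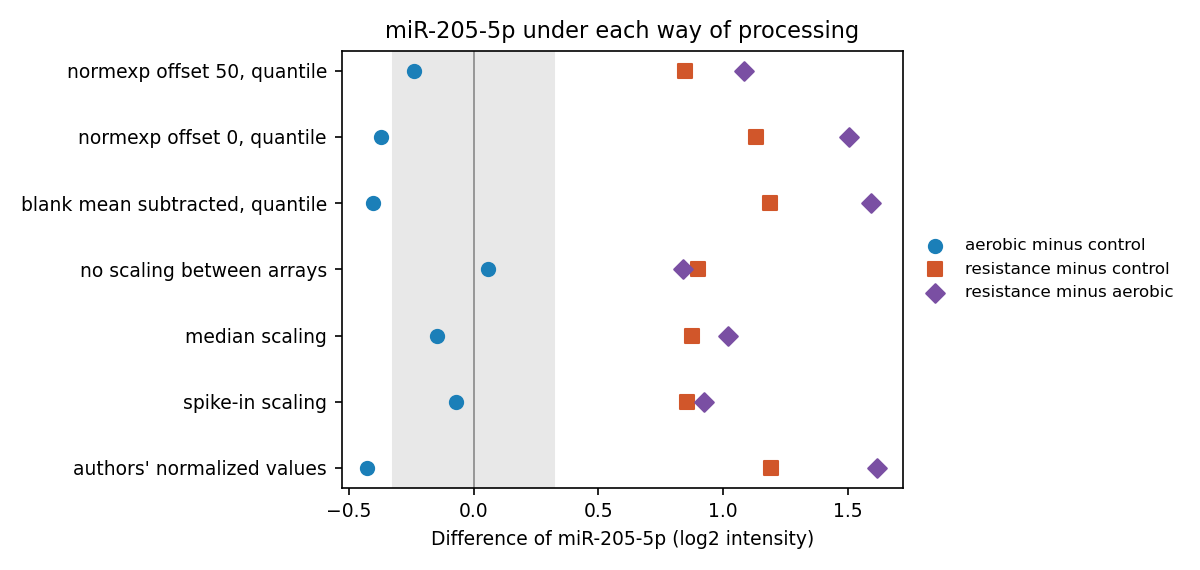
Difference of miR-205-5p between pools (horizontal axis, log2 intensity) under 7 ways of processing (rows), with a circle for aerobic minus control, a square for resistance minus control and a diamond for resistance minus aerobic, and a band at 0.32 either side of 0. Squares and diamonds lie between 0.84 and 1.62 in all rows, and circles between -0.43 and 0.06.

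The dim members were far less settled. For resistance against control 4 of 7 members, miR-205-5p among them, were higher and 1 lower past spot scatter with an offset of 0, with blank subtraction and in the authors' deposited values. Calls rose over all miRNAs too, to 12.4%, 18.1% and 13.5% higher and 9.73%, 15.3% and 25.5% lower. With the blank mean subtracted and no offset, miR-141-3p stood at -1.26 for aerobic and -1.12 for resistance against control, and miR-429-3p at 0.38 and 1.31. In raw units these are differences of a few units between spots at most 13.0 above the blank mean. In the authors' deposited values miR-141-3p was 10.9 for the control, 4.68 for the aerobic and 4.30 for the resistance pool, and miR-429-3p was 3.13, 4.30 and 7.17, so each passes 2-fold there for resistance against control, in opposite directions.

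The other arms of the miR-200 hairpins, usually the less abundant strands, were near background as well. Of the 5, miR-141-5p and miR-429-5p were not detected on any array. miR-200c-5p stood at 106.1, 110.5 and 109.1 in control, aerobic and resistance plasma. miR-200a-5p stood at 97.9, 103.8 and 97.7, and miR-200b-5p at 98.1, 101.0 and 100.2. All differences of the 3 detected arms lay within spot scatter, the largest in size being -0.07 for miR-200a-5p in resistance minus aerobic plasma. Without the offset some passed. For resistance minus aerobic plasma miR-200a-5p stood at -0.33 with an offset of 0, -0.69 with blank subtraction and -0.89 in the authors' deposited values. Of all miRNAs compared 7.8%, 12.7% and 16.2% were lower there in the same order. With blank subtraction miR-200b-5p was higher in that comparison, at 0.38, where 13.9% of all miRNAs were. Against control miR-200a-5p was lower in resistance plasma, at -0.38 with blank subtraction and -0.49 in the deposited values. In the latter it was higher in aerobic plasma, at 0.41. The shares of all miRNAs for those comparisons are given above. In the analysis with the offset the medians of the 3 arms were -0.02, 0.02 and 0.04 for aerobic minus control, resistance minus control and resistance minus aerobic.

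Other epithelial miRNAs were set beside miR-205-5p from a list of 11. Of these 7 were detected in both pools of each comparison. With the offset and quantile scaling none passed spot scatter in any comparison, and their medians were 0.08, 0.11 and 0.04 in the same order, the last turning to -0.12 without scaling between arrays. With an offset of 0, with blank subtraction and in the authors' deposited values 2, 3 and 2 of the 7 were higher past spot scatter for aerobic against control, 2, 3 and 2 for resistance against control and 1, 2 and 2 for resistance against aerobic. Of all miRNAs compared 10.8%, 16.4% and 13.4%, then 12.4%, 18.1% and 13.5%, then 8.95%, 13.9% and 11.8% were higher, in the same order. With no scaling 1 of the 7 was higher for aerobic and 1 for resistance against control, against 18.6% and 5.39% of all miRNAs. With spike-in scaling 1 was higher for aerobic against control, against 9.24%. None was lower past it in any of these. The one nearest to the limit was miR-203-3p, which is known from the upper layers of the epidermis and, like miR-205, from skin. Its raw intensity was 100.1 for the control, 109.0 for the aerobic and 116.7 for the resistance pool. Its resistance minus control difference was 0.32, level with the limit but not past it, and its resistance minus aerobic difference 0.24. The call turned with the processing: resistance minus control was 0.33 with no scaling, 1.02 with an offset of 0 and 1.49 with blank subtraction, all past the limit. In the authors' deposited values miR-203-3p was 2.71-fold brighter in resistance than in control plasma, more than the 2.28-fold of miR-205-5p there.

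Among the other detected miRNAs of that list miR-192-5p was the brightest. Its raw intensity was 147.1 (control), 187.0 (aerobic) and 161.9 (resistance), and no spot without a probe was as bright on any array. Its aerobic spot was brighter than the 178.2 of miR-205-5p. The rest were dimmer, as miR-203-3p was. miR-375-3p, known from endocrine and gut epithelium, stood at 119.5, 124.4 and 119.2 in control, aerobic and resistance plasma. miR-184-3p, known from cornea, stood at 119.1, 127.5 and 127.1, and miR-31-5p, known from skin, at 102.2, 115.0 and 108.1. The gut and liver miRNAs miR-192-5p, miR-194-5p and miR-215-5p had as their largest difference 0.20 for miR-192-5p in aerobic minus control plasma, with the offset and quantile scaling. miR-182-5p and miR-183-5p, from a hairpin cluster of sensory epithelium, and miR-449a-5p of ciliated cells were not detected on any array. miR-96-5p of that same cluster was detected in the resistance pool only, at 100.3. It fell just short of the 2 SD mark elsewhere, at 94.77 against 94.83 in control and 98.67 against 99.02 in aerobic plasma.

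**Figure D4:**
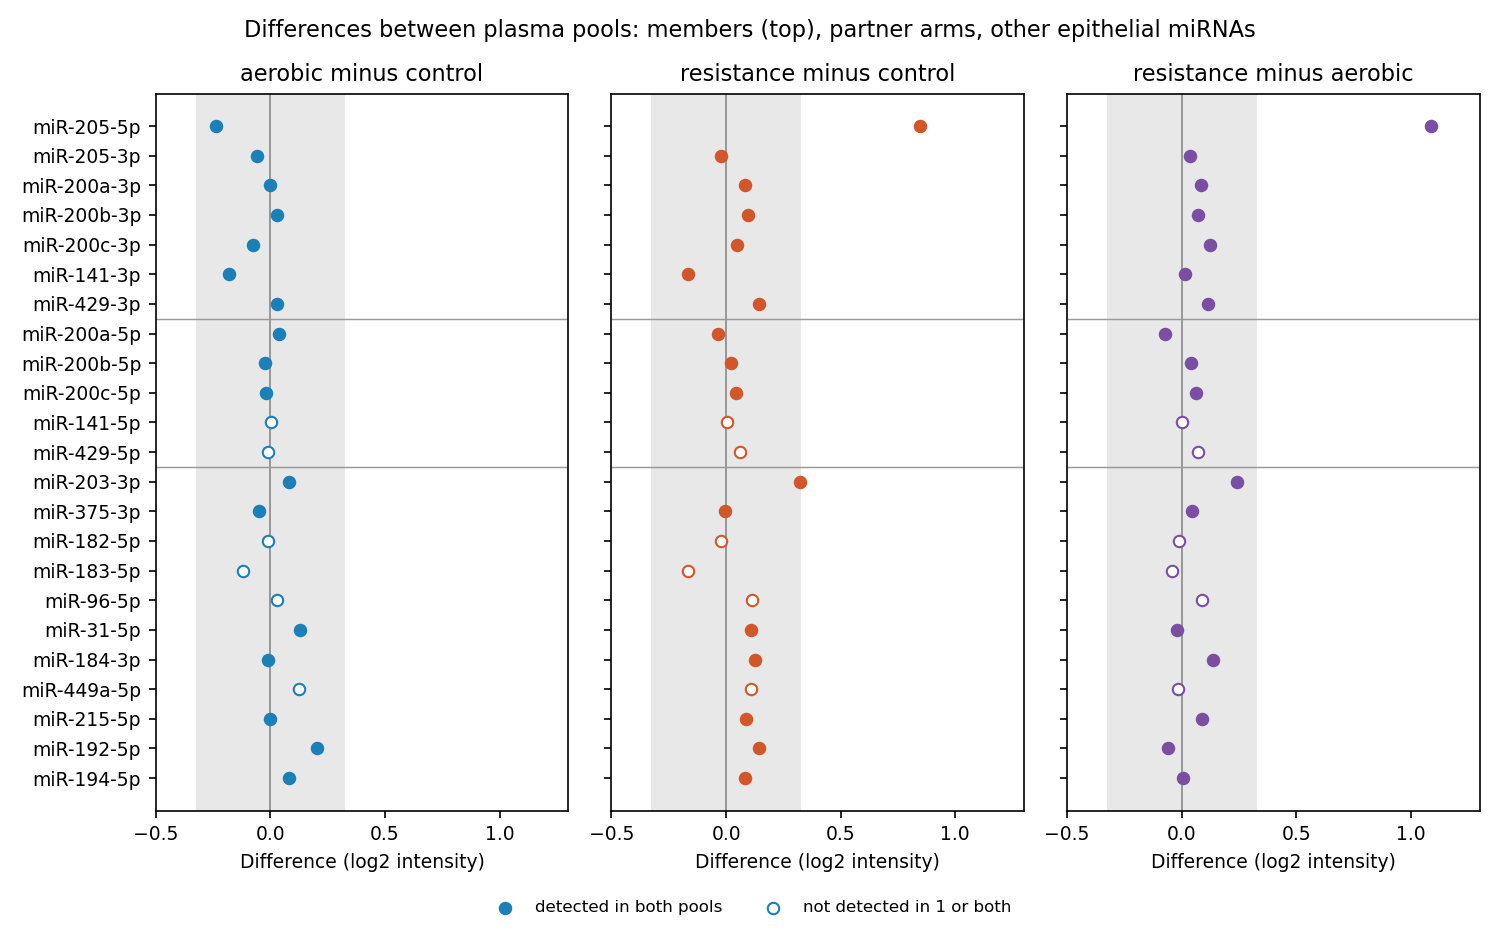
Differences between pools (horizontal axes, log2 intensity) for the 7 members, 5 partner arms and 11 other epithelial miRNAs (rows, in blocks from the top), filled where both pools detected the miRNA and open otherwise, with a band at 0.32 either side of 0. miR-205-5p is the one point outside the band, at 0.85 and 1.09, and miR-203-3p lies on its edge at 0.32 in the resistance minus control panel.

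Markers of blood cells also differed between pools. Of 5 erythrocyte probes 4 were detected on every array, and all but miR-144-5p carried signal. Their summed raw intensity above the blank mean was 3627 for the control, 7006 for the aerobic and 6496 for the resistance pool. The 4 platelet probes summed to 1658, 2407 and 2374, and the 3 leukocyte probes to 178.9, 268.8 and 269.4. These sums, from unscaled arrays, were higher in both exercise pools than in control. On the normalized scale 0 of 4 platelet probes passed spot scatter for aerobic against control and 3 of 4 were higher for resistance against control, the same calls as for miR-205-5p, while without scaling 3 of 4 were higher for aerobic against control too. For resistance against aerobic plasma 2 of 4 were higher, and 0 without scaling. Of the erythrocyte probes 3, 4 and 2 of 4 were higher for aerobic against control, resistance against control and resistance against aerobic, the last 0 without scaling. Of all miRNAs compared 3.79%, 5.54% and 1.91% were higher in the same order. Without scaling 18.6% were higher for aerobic against control and 0.459% for resistance against aerobic. The hepatocyte miRNA miR-122-5p stood at 75.4, 197.3 and 99.1 above the blank mean. The 4 muscle probes summed to 596.2, 165.3 and 316.4. Their part in the miR-205-5p result was not tested. In plasma, a larger number of cells shedding a miRNA and a larger release per cell cannot be told apart.

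Over the 3 pools, the miRNAs whose normalized log2 values ran most like those of miR-205-5p were sought among the 1296 detected on every array, by Euclidean distance between profiles centred on their mean. The 5 nearest were miR-24-3p at a distance of 0.35, miR-378a-3p at 0.41, miR-23b-3p at 0.44, miR-6989-5p at 0.44 and miR-23a-3p at 0.46, against a median of 0.82 over all. miR-24-3p differed by 0.10 for aerobic and 0.69 for resistance against control, with raw intensities of 905.6, 1278 and 1387 in control, aerobic and resistance plasma. It is one of the 4 platelet probes above, of which miR-21a-5p, at 0.27 and 0.60, and miR-126a-3p, at 0.24 and 0.45, were also highest in the resistance pool on this scale. The remaining platelet probe, miR-223-3p, went the other way, at 0.01 and -0.06, and was lowest in the resistance pool. None of the 5 was lower in the aerobic than in the control pool, as miR-205-5p was on this scale. With 3 pools such likeness is a description only.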

How the data were processed

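Spot intensities of plasma miRNA from 3 pools were analysed. The deposited scanner files give, per the file headers, each spot's raw intensity, and the same after background subtraction and after global normalization by the authors, all linear. From the values, the authors scaled each array to a median of 25, and the deposited value table repeats these to within 0.05. Here the background was the mean of the 896 blank spots trimmed by 5% at each end, and a spot counted as detected above 2 SD, which gave 0 differences from the authors' empty cells. Raw intensities were corrected with normexp (limma 3.58.1, R 4.3.3, offset 50) and quantile normalized over 1900 miRNAs. Every spot carried the flag OK in the files. The steps were tested on simulated data. Known changes were put only into miRNAs well above the blanks, so that test does not cover signals as dim as those of the dim members.

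All members, their partner arms, 11 other epithelial miRNAs and the 5 miRNAs nearest to miR-205-5p were named by rule. Members and lists were chosen with earlier results of these data known. Alternatives were an offset of 0, blank subtraction (floor of 1), no, median or spike-in scaling, the authors' values, a 10 SD threshold and no detection filter. The labels name a mouse organism and a human chip in places, and the mouse probe names were used. Each array stands for 1 pool, so the number of arrays limits the precision. Sequences are from RefSeq.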

Additional observations from a re-analysis of the deposited data

How the results depend on the processing

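Of the miR-205-5p differences, those with resistance plasma kept their direction and stayed past spot scatter under every alternative run. Resistance minus control was 1.13 with offset 0, 1.19 with the blank mean subtracted and 1.19 in the authors' values. Resistance minus aerobic was 1.51, 1.59 and 1.62 in the same order and 0.84 with no scaling. Aerobic minus control was -0.41 with blank subtraction, -0.43 in the authors' values, -0.0708 with spike-in scaling and 0.0586 with no scaling.

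No member of the miR-200 family was past spot scatter at first. For aerobic against control 1 was higher with blank subtraction and 1 in the authors' values, while 1, 2 and 2 were lower with offset 0, blank subtraction and the authors' values. For resistance against control 3 were higher with offset 0, 3 with blank subtraction and 3 in the authors' values, and 1 was lower in each. For resistance against aerobic 3, 4 and 3 were higher and 0 lower, where 8.95%, 13.9% and 11.8% of all miRNAs were higher against 1.91% at first. The shares of all miRNAs for the comparisons with control are given above and rose likewise. Detected members numbered 7 per array, and 2, 1 and 1 at 10 SD in control, aerobic and resistance plasma, or 4 in control above the 95th percentile of spots without a probe, a mark chosen after seeing the data. How many of all miRNAs passed each of these marks is given above.

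Over all miRNAs, 3 were 2-fold apart for aerobic against control, and 11 with offset 0, 27 with blank subtraction, 7 with no scaling and 30 in the authors' values. For resistance against control the 4 became 10, 29 and 39 with offset 0, blank subtraction and the authors' values. For resistance against aerobic the 2 became 5, 24 and 30 in that order, 1 each with no scaling, spike-in scaling or the 10 SD threshold, and 4 with no detection filter. The causes were not tested. A background taken from nearby blank spots was not run, because the files used here hold no spot positions. No paired analysis was possible because each group has 1 array. A single array per pool, and spots close to background for 6 of 7 members, limit what can be said.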

Other observations

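The 16 spots of Negative Control 1 fell into separate sets of 8. On the control array the dim set ran from 91.9 to 95.4 and the bright set from 112.0 to 123.4. On the aerobic array they ran from 91.8 to 97.9 and from 112.2 to 130.4, and on the resistance array from 90.8 to 97.3 and from 114.8 to 123.7. The same 8 spots were bright on all 3 arrays. An SD pooled over all 16, 0.27 on the log2 scale, therefore spans both sets, and the 0.77 it gives for 2 SD of a difference is wider than the scatter within either. miR-205-5p was past 0.77 for resistance plasma against both other pools. The 6 dim members lay between the dim and the bright set on all 3 arrays.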
